A study of Homo sapiens with 60 samples.

Results

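Messenger RNA was compared between HepG2 cells given a water extract of Astragali Radix at 500 µg/mL for 24 h and HepG2 cells given the same extract at 20 µg/mL. Astragali Radix is the dried root of an Astragalus plant used in East Asian medicine, and HepG2 is an established human liver carcinoma line that keeps many hepatocyte functions. The comparison took every library that the labels give to these doses, 3 at 500 µg/mL and 3 at 20 µg/mL, which is 6 of the 60 libraries used from the series. The replicate number in the sample code was a block in the model, as this comparison was defined. The other libraries came from cells given water extracts of 3 further single herbs (Cnidii Rhizoma, Cinnamomi Cortex, Rehmanniae Radix Preparata) or 3 formulas (Sagunja-tang, Samul-tang, Palmul-tang), each at 500, 100 and 20 µg/mL, or from vehicle (dimethyl sulfoxide, 0.1% in the labels and 2% in the design text). All 6 libraries share the cell line, the time and the set number 6 of their codes, which the labels do not explain. The titles place all 60 libraries used, vehicle included, in a batch named B. Nothing in the labels says that the 3 replicates of a dose came from separate cultures. The p-values thus reflect only how far libraries of a group scatter, and that scatter may be technical. It was estimated over 57 libraries of 19 groups, not over these 6 alone.

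Total counts were 16.5, 22.8 and 27.5 M at 500 µg/mL, against 24.4, 23.6 and 25.4 M at 20 µg/mL, and the median of the 60 libraries was 25.5 M. Genes of the mitochondrial genome took 14.85, 18.65 and 15.54% of counts at 500 µg/mL, against 15.23, 16.87 and 16.11% at 20 µg/mL, so the doses overlapped. The 10 hepatocyte markers summed to 56600 to 60900 CPM of total counts (counts scaled to a common library total) at 500 µg/mL, against 59300 to 61900 at 20 µg/mL. The 14 markers of other cell types summed to 356 to 366 CPM of total counts at 500 µg/mL, against 359 to 374 at 20 µg/mL, with the leukocyte markers PTPRC and CD3E at 0 in all 6 libraries. No marker of another cell type passed the test, and of the hepatocyte markers only transthyretin (TTR), described below, did. In bulk RNA a lower level can come from fewer cells of a kind or from less RNA per cell, which cannot be told apart.

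Hepatocytes adjust their output to insulin through the kinase AKT, which keeps FOXO transcription factors out of the nucleus. When insulin signalling is low, FOXO factors raise genes of glucose release and a secreted inhibitor of insulin-like growth factors. Metallothioneins are small cysteine-rich proteins that bind zinc and copper, and the zinc-sensing factor MTF1 drives them through short metal response elements before their start sites. NRF2 is a transcription factor that answers electrophiles and oxidants by raising enzymes of glutathione use, aldehyde reduction and drug conjugation, among them aldo-keto reductases and, in hepatocytes, alpha class glutathione S-transferases. Genes of these 3 groups were among those that differed between the doses.

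Promoters from RefSeq (build GRCh38.p14) are shown for genes that stand for these groups, as the 250 bases before the RefSeq start, written along the gene. MT2A, the most abundant metallothionein message here in CPM, has its window at chr16:56608334-56608583 on the plus strand. SLC30A1, a zinc exporter that is also an MTF1 target, has its window at chr1:211579162-211579411 on the minus strand. In both, capitals mark matches to TGCACNC or TGCGCNC on either strand, the core of the metal response element. DEPP1, a FOXO-responsive gene, has its window at chr10:44978810-44979059 on the minus strand, with capitals on GTAAACA, a FOXO binding motif searched on both strands. GSTA1 at chr6:52803817-52804066 and GSTA2 at chr6:52763476-52763725, both on the minus strand, are neighbouring copies of a glutathione S-transferase gene, shown because their similarity bears on how reads are shared between them.
MT2A: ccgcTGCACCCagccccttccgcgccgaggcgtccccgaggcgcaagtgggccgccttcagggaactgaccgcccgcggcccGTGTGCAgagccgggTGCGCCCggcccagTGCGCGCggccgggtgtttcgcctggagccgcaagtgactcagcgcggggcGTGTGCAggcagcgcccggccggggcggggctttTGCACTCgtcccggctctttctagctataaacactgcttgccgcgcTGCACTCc
SLC30A1: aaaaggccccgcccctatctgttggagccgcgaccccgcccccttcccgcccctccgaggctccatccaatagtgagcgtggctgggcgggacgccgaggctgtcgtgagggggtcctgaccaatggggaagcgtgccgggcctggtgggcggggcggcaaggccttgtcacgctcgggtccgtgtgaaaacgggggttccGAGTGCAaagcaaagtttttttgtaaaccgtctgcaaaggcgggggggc
DEPP1: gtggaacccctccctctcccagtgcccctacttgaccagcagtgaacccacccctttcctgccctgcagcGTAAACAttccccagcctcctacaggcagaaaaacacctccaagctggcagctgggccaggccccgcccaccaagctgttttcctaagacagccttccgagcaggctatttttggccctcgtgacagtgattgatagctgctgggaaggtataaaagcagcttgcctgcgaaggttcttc
GSTA1: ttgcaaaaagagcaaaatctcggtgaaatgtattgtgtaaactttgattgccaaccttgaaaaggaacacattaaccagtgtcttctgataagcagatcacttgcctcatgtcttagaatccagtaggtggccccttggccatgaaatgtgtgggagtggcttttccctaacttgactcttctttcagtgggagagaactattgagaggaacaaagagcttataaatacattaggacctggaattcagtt
GSTA2: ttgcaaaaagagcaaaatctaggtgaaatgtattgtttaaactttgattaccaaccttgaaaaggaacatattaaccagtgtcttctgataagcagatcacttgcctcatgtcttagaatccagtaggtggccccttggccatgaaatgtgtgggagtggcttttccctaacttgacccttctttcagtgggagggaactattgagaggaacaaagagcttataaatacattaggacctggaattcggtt
The MT2A window held 7 matches to the metal response element and the SLC30A1 window held 1. Among 15938 windows of genes tested, 31% held at least 1 match, 8.69% at least 2 and 0.157% at least 5. Of the 12 tested genes of the metallothionein and zinc list, 6 were matched in the RefSeq table, and 3 of these had at least 1 match. The FOXO motif occurred once in the DEPP1 window and in 2.28% of windows of genes tested, and the G6PC1 window did not hold these letters. GSTA1 and GSTA2 were equal at 243 of 250 positions, or 97.2%. A match is a description of the sequence and not a measured binding site.

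At 500 µg/mL, 106 genes rose and 207 fell relative to 20 µg/mL, of 16167 genes tested. That is 313 genes or 1.94% of those tested, with 0.656% higher and 1.28% lower (edgeR quasi-likelihood F test, adjusted p under 0.05 by Benjamini-Hochberg). The falls included the FOXO-linked genes DEPP1, IGFBP1 and G6PC1, the hypoxia gene CA9 and 5 metallothioneins, and the rises included GSTA1, GSTA2 and the aldo-keto reductases AKR1B10 and AKR1C2. Most differences were small: the median log2 fold change was 0.214 among genes called higher and -0.277 among genes called lower. Only 4 called genes differed at least 2-fold, and 4 rises and 14 falls reached 1.5-fold. Of the 313, 308 were protein coding and 291 had no overlap between the 3 libraries of one dose and the 3 of the other, a separation that 16.2% of all genes tested showed. An unadjusted p under 0.05 was reached by 2048 genes.

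The count depended on the block and on single libraries. Without the replicate block 187 genes were called, and with only these 6 libraries in the fit 146 were. Leaving out a library gave 184 (500 µg/mL replicate 1), 153 (500 µg/mL replicate 2), 148 (500 µg/mL replicate 3), 155 (20 µg/mL replicate 1), 147 (20 µg/mL replicate 2) or 163 (20 µg/mL replicate 3) calls. Of the 313 genes, 79 were called in each of these 6 fits, 19 of them higher and 60 lower. Below, a call is said to end where leaving out the named library brought its adjusted p to 0.05 or above, and genes for which nothing is said were called at 500 against 20 µg/mL in all 6 fits. The fits without 1 library tested 16391 to 16410 genes. Counts of called list members below stand beside 0.656% of all genes tested called higher and 1.28% called lower, and counts above or below 0 beside 49.1% of all genes tested above 0 and 50.8% below 0. The lists were chosen with earlier results of these data known, so a count above these shares is a description and not a test.

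**Figure D1:**
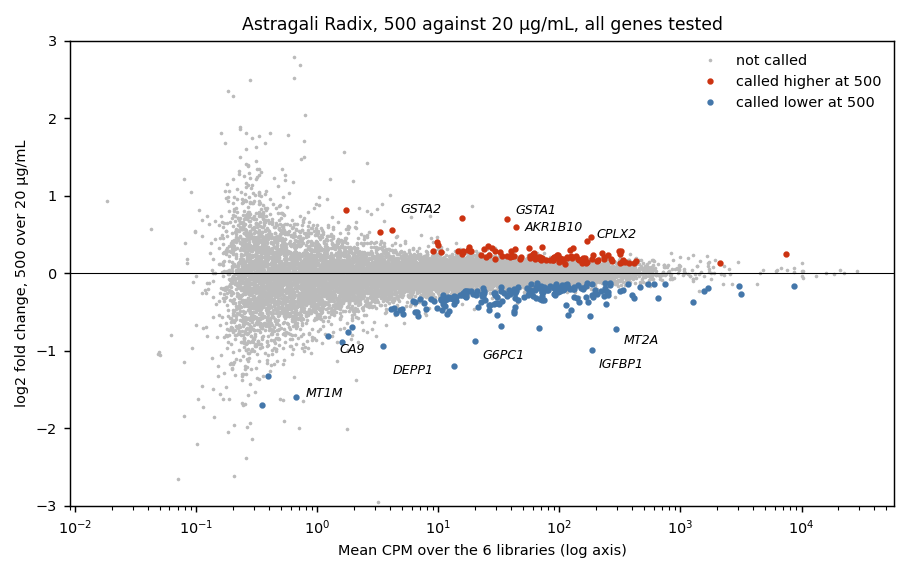
Log2 fold change at 500 over 20 µg/mL (vertical axis) against the mean CPM over the 6 libraries (horizontal, log axis), 1 point per gene tested. Coloured points are the 106 genes called higher and the 207 called lower. Left out are 58 genes, none of them called, with a log2 fold change of 3 or more in size or a mean of 0 CPM. Calls at low levels need a larger difference, and most coloured points lie within 1 log2 unit of 0.

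Genes that FOXO factors raise when insulin signalling is low were among the largest falls. DEPP1, which encodes a FOXO-responsive regulator of autophagy, had 7.88, 7.97 and 8.62 CPM at 500 µg/mL, against 13.96, 21.7 and 20.7 CPM at 20 µg/mL (chr10:44970981-44978810, minus strand, GRCh38). Every library at 500 µg/mL lay below every library at 20 µg/mL, and DEPP1 fell by more than 2-fold (log2 fold change -1.20 ± 0.10, adjusted p = 2.2e-10; errors of log2 fold changes are SE). IGFBP1, a secreted protein that binds insulin-like growth factors and is switched off by insulin, had 86.5, 137 and 146 CPM at 500 µg/mL, against 175, 284 and 279 CPM at 20 µg/mL (chr7:45888357-45893668, plus strand). Replicate 1 was the lowest library at both doses, yet each replicate number showed a fall of similar size, with log2 ratios of -1.01, -1.05 and -0.93 (log2 fold change -0.99 ± 0.087, adjusted p = 2.2e-10). G6PC1, the catalytic subunit of glucose-6-phosphatase, which releases glucose from the liver cell, had 17.5, 12.5 and 13.1 CPM at 500 µg/mL, against 25.7, 25.5 and 26.8 CPM at 20 µg/mL (chr17:42900797-42913369, plus strand). The 3 libraries at 20 µg/mL were close together and all above those at 500 µg/mL (log2 fold change -0.88 ± 0.098, adjusted p = 9.2e-08).

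DEPP1 was not on the gluconeogenesis and FOXO list, and the rest of that list did not follow IGFBP1 and G6PC1 as a group. Of the 18 tested members of the list 3 fell and none rose, 8 lay above 0 and 10 below 0. The median log2 fold change was -0.04, beside -0.0029 over all genes tested. The third fall was INSR, the insulin receptor, with 63.03, 57.7 and 58.9 CPM at 500 µg/mL, against 66.9, 68.04 and 67.5 CPM at 20 µg/mL (log2 fold change -0.18 ± 0.044, adjusted p = 0.021). The INSR call ended without 500 µg/mL replicates 2 or 3 or 20 µg/mL replicates 1, 2 or 3 (log2 fold change -0.15 to -0.19, adjusted p = 0.061 to 0.17). PCK1, the cytosolic enzyme that commits carbon to gluconeogenesis, had 7.82, 8.78 and 9.69 CPM at 500 µg/mL, against 7.75, 10.7 and 10.3 CPM at 20 µg/mL, which overlap (log2 fold change -0.13 ± 0.088, adjusted p = 0.62). FOXO1 itself had 28.3, 33.98 and 35.6 CPM at 500 µg/mL, against 31.2, 31.4 and 30.9 CPM at 20 µg/mL, and its log2 fold change of 0.070 ± 0.063 did not pass the test (adjusted p = 0.73). In the insulin-like growth factor list 3 of 13 tested members fell, IGFBP1, INSR and IGFBP2, and none rose, with a median of -0.13. IGFBP2, a second binding protein of these factors, had 8.70, 8.10 and 7.77 CPM at 500 µg/mL, against 11.7, 11.2 and 10.6 CPM at 20 µg/mL, with no overlap (log2 fold change -0.45 ± 0.099, adjusted p = 0.0059). The IGFBP2 call ended without 500 µg/mL replicate 3 or 20 µg/mL replicate 1 (log2 fold change -0.41 to -0.42, adjusted p = 0.051 to 0.072). IRS1, the adaptor that couples the insulin receptor to its downstream kinases, had 56.6, 61.2 and 59.3 CPM at 500 µg/mL, against 65.05, 55.8 and 57.1 CPM at 20 µg/mL, and its log2 fold change was -0.004 ± 0.059 (adjusted p = 0.99).

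Of 7 tested metallothionein genes 5 fell and none rose. Of the 12 tested members of the metallothionein and zinc list 7 fell and 1 rose, with a median log2 fold change of -0.35. MT2A, the main metallothionein message in CPM, had 204, 240.4 and 222 CPM at 500 µg/mL, against 384, 351 and 364 CPM at 20 µg/mL (log2 fold change -0.73 ± 0.11, adjusted p = 4.0e-05). MT1G had 50.1, 53.4 and 50.3 CPM at 500 µg/mL, against 83.2, 80.1 and 87.4 CPM at 20 µg/mL (log2 fold change -0.71 ± 0.11, adjusted p = 1.2e-04). Neither gene overlapped between doses. MT1E had 140.4, 151 and 143 CPM at 500 µg/mL, against 224, 206 and 206 CPM at 20 µg/mL (log2 fold change -0.55 ± 0.099, adjusted p = 5.1e-04), and MT1F had 24.8, 26.5 and 24.2 CPM at 500 µg/mL, against 45.6, 39.8 and 36.7 CPM at 20 µg/mL (log2 fold change -0.69 ± 0.12, adjusted p = 1.8e-04). These 4 genes lie within chr16:56608199-56668065 of GRCh38, the span from the start of MT2A to the end of MT1G. MT1 genes are close copies of each other, so the share of reads each received in the authors' counting is uncertain, and the summed level is the firmer value. The 7 metallothionein genes tested summed to 448.7, 502.7 and 467.3 CPM at 500 µg/mL, against 781.5, 712.1 and 728.2 CPM at 20 µg/mL. The means were 472.9 ± 27.4 CPM at 500 µg/mL and 740.6 ± 36.3 CPM at 20 µg/mL (SD, n = 3 each), a log2 ratio of -0.647, and the doses did not overlap. An exact two-sided permutation test gave p = 0.1, the smallest p that 3 against 3 libraries allow.

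Low and zinc-handling members completed that list. MT1M had a low level, 0.353, 0.448 and 0.214 CPM at 500 µg/mL, against 1.03, 1.05 and 0.934 CPM at 20 µg/mL (log2 fold change -1.60 ± 0.41, adjusted p = 0.027). The MT1M call ended without 500 µg/mL replicates 1, 2 or 3 or 20 µg/mL replicates 1, 2 or 3 (log2 fold change -1.38 to -1.80, adjusted p = 0.072 to 0.18). MT1X, with 27.99, 29.8 and 27.1 CPM at 500 µg/mL, against 41.6, 33.1 and 31.8 CPM at 20 µg/mL, also lay lower in each library at 500 µg/mL but did not pass the test (log2 fold change -0.32 ± 0.11, adjusted p = 0.12). SLC30A1, which exports zinc from the cell, had 79.02, 78.9 and 86.1 CPM at 500 µg/mL, against 102, 92.8 and 99.8 CPM at 20 µg/mL (log2 fold change -0.27 ± 0.063, adjusted p = 0.015). Its libraries did not overlap between doses. The SLC30A1 call ended without 500 µg/mL replicates 1 or 2 or 20 µg/mL replicates 1 or 3 (log2 fold change -0.24 to -0.25, adjusted p = 0.084 to 0.11). SLC39A14, a zinc and iron importer, had 748, 676 and 715 CPM at 500 µg/mL, against 776, 803 and 787 CPM at 20 µg/mL (log2 fold change -0.15 ± 0.038, adjusted p = 0.031). The SLC39A14 call ended without 500 µg/mL replicates 2 or 3 or 20 µg/mL replicates 1, 2 or 3 (log2 fold change -0.10 to -0.16, adjusted p = 0.057 to 0.33). SLC39A10, a zinc importer of the same family, was the member that rose, with 19.1, 16.5 and 16.9 CPM at 500 µg/mL, against 13.2, 14.3 and 15.4 CPM at 20 µg/mL (log2 fold change 0.28 ± 0.070, adjusted p = 0.021). The SLC39A10 call ended without 500 µg/mL replicate 1 or 20 µg/mL replicates 1 or 2 (log2 fold change 0.21 to 0.29, adjusted p = 0.069 to 0.22). MTF1 itself had 18.4, 19.03 and 18.7 CPM at 500 µg/mL, against 19.5, 18.3 and 18.3 CPM at 20 µg/mL and a log2 fold change of 0.007 ± 0.066 (adjusted p = 0.99).

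**Figure D2:**
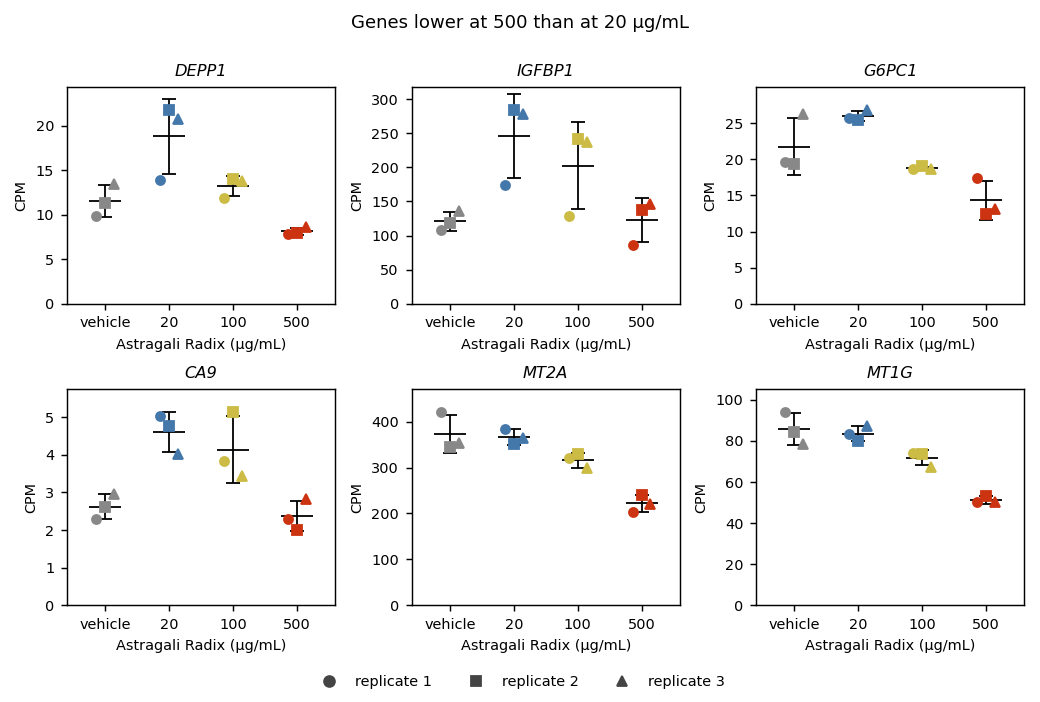
CPM of 6 genes that fell, in vehicle and in cells given Astragali Radix at 20, 100 and 500 µg/mL (horizontal axis); symbols are the 3 libraries of a group, bars the mean and SD, and each vertical axis starts at 0. In all 6 genes the 3 libraries at 500 µg/mL lie below the 3 at 20 µg/mL; DEPP1, IGFBP1 and CA9 are also lower in vehicle than at 20 µg/mL, and MT2A and MT1G are not.

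GSTA1, GSTA2, AKR1B10 and AKR1C2, which encode enzymes that act on electrophiles, aldehydes or steroids, rose. GSTA1, a glutathione S-transferase that joins glutathione to electrophiles, had 40.1, 46.2 and 49.99 CPM at 500 µg/mL, against 26.7, 26.7 and 31.1 CPM at 20 µg/mL (log2 fold change 0.70 ± 0.076, adjusted p = 4.4e-08). GSTA2, its near-identical neighbour, had 20.5, 18.4 and 19.7 CPM at 500 µg/mL, against 11.8, 10.7 and 13.3 CPM at 20 µg/mL (log2 fold change 0.71 ± 0.085, adjusted p = 2.8e-07). The libraries of the doses did not overlap for either gene. Their promoter windows above are 97.2% equal and their transcripts are close copies, so reads may have been split between them unevenly, and the direction shared by both is safer than either value alone. AKR1B10, an aldo-keto reductase that reduces aldehydes, had 57.4, 50.1 and 49.6 CPM at 500 µg/mL, against 36.6, 34.8 and 32.2 CPM at 20 µg/mL (chr7:134527592-134541408, plus strand), and rose in each replicate number (log2 fold change 0.60 ± 0.063, adjusted p = 2.0e-08). AKR1C2, an aldo-keto reductase that acts on steroids, had 240.3, 194 and 203 CPM at 500 µg/mL, against 148, 153 and 158 CPM at 20 µg/mL (log2 fold change 0.47 ± 0.055, adjusted p = 2.0e-07). Replicate 1 at 500 µg/mL was the highest of these, and the other 2 libraries at that dose were also above all 3 at 20 µg/mL. The AKR1C genes are close copies too: AKR1C1 had 320.3, 282 and 307 CPM at 500 µg/mL, against 276, 267 and 283 CPM at 20 µg/mL (log2 fold change 0.14 ± 0.050, adjusted p = 0.17), and AKR1C3 had 32.8, 33.3 and 37.9 CPM at 500 µg/mL, against 37.5, 36.1 and 41.4 CPM at 20 µg/mL (log2 fold change -0.14 ± 0.095, adjusted p = 0.59). Neither passed the test, so of these 3 genes only AKR1C2 was called.

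Of the 21 tested genes of the NRF2 antioxidant list 7 rose and 1 fell, with a median log2 fold change of 0.17, and 19 of the 21 lay above 0. ABCC3, which exports glucuronide and glutathione conjugates, had 50.9, 44.7 and 46.9 CPM at 500 µg/mL, against 40.7, 38.3 and 35.9 CPM at 20 µg/mL (log2 fold change 0.31 ± 0.058, adjusted p = 8.2e-04). SRXN1, which repairs over-oxidised peroxiredoxins, had 113, 97.5 and 98.1 CPM at 500 µg/mL, against 90.05, 84.5 and 87.99 CPM at 20 µg/mL (log2 fold change 0.23 ± 0.043, adjusted p = 8.4e-04). Both had no overlap between doses. GSR, which regenerates reduced glutathione, had 153, 157 and 149 CPM at 500 µg/mL, against 133, 132 and 138 CPM at 20 µg/mL (log2 fold change 0.19 ± 0.039, adjusted p = 0.0039). The GSR call ended without 500 µg/mL replicate 2 or 20 µg/mL replicate 1 (log2 fold change 0.16 to 0.17, adjusted p = 0.057 to 0.067). TXNRD1, which reduces thioredoxin, had 183, 162 and 180.1 CPM at 500 µg/mL, against 165, 144 and 149 CPM at 20 µg/mL, an overlapping pair of ranges (log2 fold change 0.20 ± 0.053, adjusted p = 0.034). The TXNRD1 call ended without 500 µg/mL replicates 1, 2 or 3 or 20 µg/mL replicates 1, 2 or 3 (log2 fold change 0.16 to 0.23, adjusted p = 0.052 to 0.24). FTL, the light chain of the iron store ferritin, had 7819, 8544 and 7981 CPM at 500 µg/mL, against 7078, 6871 and 6602 CPM at 20 µg/mL (log2 fold change 0.24 ± 0.068, adjusted p = 0.045). The FTL call ended without 500 µg/mL replicates 1, 2 or 3 or 20 µg/mL replicates 1, 2 or 3 (log2 fold change 0.22 to 0.28, adjusted p = 0.066 to 0.23). The member that fell was SLC7A11, the cystine importer that feeds glutathione synthesis, with 30.8, 30.2 and 34.5 CPM at 500 µg/mL, against 36.7, 37.8 and 39.3 CPM at 20 µg/mL (log2 fold change -0.25 ± 0.070, adjusted p = 0.048). The SLC7A11 call ended without 500 µg/mL replicates 1, 2 or 3 or 20 µg/mL replicates 1, 2 or 3 (log2 fold change -0.20 to -0.29, adjusted p = 0.072 to 0.30). SLC7A11 is also a target of ATF4.

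Other familiar NRF2 targets did not pass the test. NQO1, a quinone reductase, had 394, 389 and 415 CPM at 500 µg/mL, against 367, 334 and 363 CPM at 20 µg/mL, with no overlap, and missed the threshold (log2 fold change 0.17 ± 0.049, adjusted p = 0.056). GCLC and GCLM encode the subunits of the enzyme that starts glutathione synthesis. GCLC had 81.4, 76.3 and 79.1 CPM at 500 µg/mL, against 66.9, 69.8 and 77.3 CPM at 20 µg/mL (log2 fold change 0.14 ± 0.042, adjusted p = 0.062), and GCLM had 38.04, 38.2 and 40.7 CPM at 500 µg/mL, against 35.00, 33.4 and 34.6 CPM at 20 µg/mL (log2 fold change 0.19 ± 0.073, adjusted p = 0.23). HMOX1, which breaks down haem, had 68.6, 71.5 and 69.4 CPM at 500 µg/mL, against 70.04, 70.9 and 65.8 CPM at 20 µg/mL and a log2 fold change of 0.021 ± 0.051 (adjusted p = 0.93), so its ranges overlapped. In the list of drug metabolism genes under AHR, PXR and CAR none of 17 tested members was called and the median was -0.04. CYP1A1, the usual AHR target, had 12.7, 9.45 and 9.58 CPM at 500 µg/mL, against 10.6, 9.37 and 9.54 CPM at 20 µg/mL (log2 fold change 0.092 ± 0.079, adjusted p = 0.70).

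**Figure D3:**
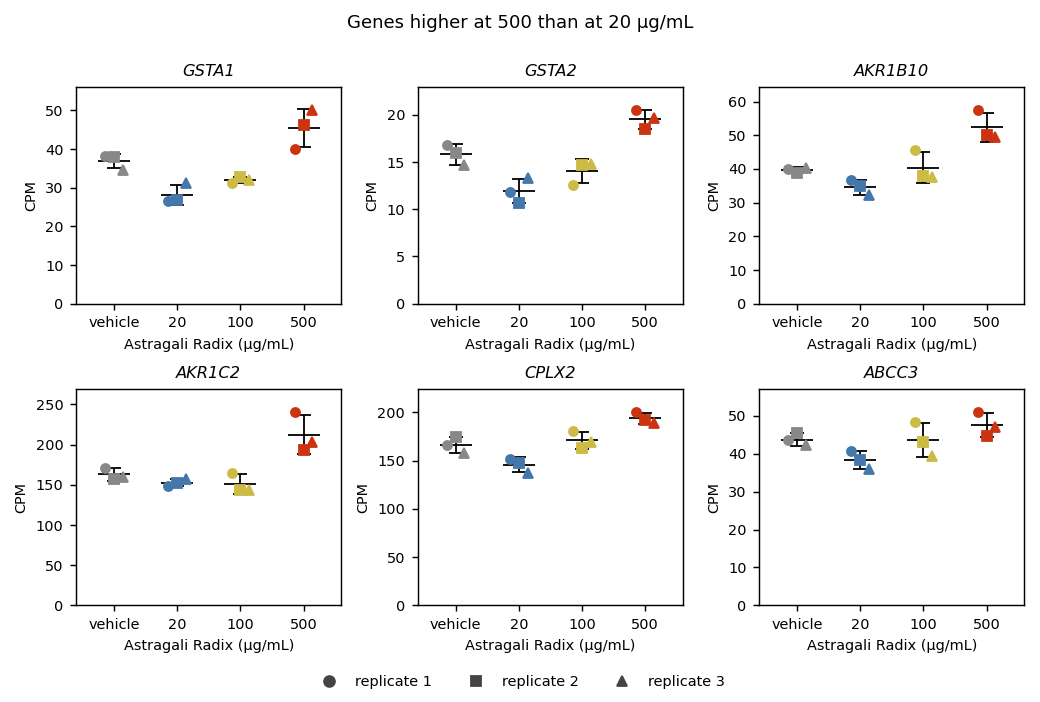
CPM of 6 genes that rose, in vehicle and in cells given Astragali Radix at 20, 100 and 500 µg/mL (horizontal axis); symbols are the 3 libraries of a group, bars the mean and SD, and each vertical axis starts at 0. In all 6 genes the 3 libraries at 500 µg/mL lie above the 3 at 20 µg/mL, and in GSTA1, GSTA2, AKR1B10 and ABCC3 the vehicle libraries also lie above those at 20 µg/mL.

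A minority of cholesterol and fatty acid synthesis genes fell, each by less than 1.5-fold. Of the 24 tested genes of cholesterol synthesis and uptake 7 fell and none rose, 23 lay below 0, and the median log2 fold change was -0.16. FDPS, which makes farnesyl diphosphate in the mevalonate pathway, had 216, 221 and 221 CPM at 500 µg/mL, against 249, 259 and 261 CPM at 20 µg/mL (log2 fold change -0.22 ± 0.038, adjusted p = 2.6e-04). The ranges did not overlap, and FDPS was the 1 member called in each fit without a single library. LSS, which closes the sterol ring system, had 236, 225 and 229 CPM at 500 µg/mL, against 282, 275 and 257 CPM at 20 µg/mL (log2 fold change -0.24 ± 0.059, adjusted p = 0.021). The LSS call ended without 500 µg/mL replicates 2 or 3 or 20 µg/mL replicates 1 or 2 (log2 fold change -0.20 to -0.24, adjusted p = 0.077 to 0.16). ACAT2, FDFT1, SC5D and DHCR7 also fell, with log2 fold changes of -0.16, -0.14, -0.22 and -0.22. The call of ACAT2 ended without 500 µg/mL replicates 2 or 3 or 20 µg/mL replicates 2 or 3 (log2 fold change -0.13 to -0.17, adjusted p = 0.058 to 0.18), that of FDFT1 without 500 µg/mL replicates 1 or 2 or 20 µg/mL replicates 1, 2 or 3 (log2 fold change -0.12 to -0.14, adjusted p = 0.081 to 0.13), that of SC5D without 500 µg/mL replicates 1, 2 or 3 or 20 µg/mL replicates 1, 2 or 3 (log2 fold change -0.18 to -0.25, adjusted p = 0.053 to 0.22) and that of DHCR7 without 500 µg/mL replicates 2 or 3 or 20 µg/mL replicates 1, 2 or 3 (log2 fold change -0.18 to -0.25, adjusted p = 0.071 to 0.25). HMGCS1, an early enzyme of the mevalonate pathway, had 487, 481 and 528 CPM at 500 µg/mL, against 536, 521 and 576 CPM at 20 µg/mL (log2 fold change -0.13 ± 0.051, adjusted p = 0.25). The list held 1 to 4 calls when single libraries were left out and 2 without the replicate block.

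Of the 18 tested genes of fatty acid and lipid synthesis 4 fell and none rose, with a median of -0.08. ACSS2, which makes acetyl-CoA from acetate, had 134, 117 and 126 CPM at 500 µg/mL, against 160.4, 159 and 168 CPM at 20 µg/mL, with no overlap (log2 fold change -0.37 ± 0.037, adjusted p = 4.9e-09). FADS2, a desaturase of polyunsaturated fatty acids, had 282, 291 and 296 CPM at 500 µg/mL, against 336, 343 and 338 CPM at 20 µg/mL, also with no overlap (log2 fold change -0.23 ± 0.045, adjusted p = 0.0022). ACLY, which makes acetyl-CoA from citrate, and SCD, the stearoyl-CoA desaturase, fell by less. ACLY had 524, 504 and 519 CPM at 500 µg/mL, against 561, 573 and 563 CPM at 20 µg/mL (log2 fold change -0.13 ± 0.032, adjusted p = 0.014). The ACLY call ended without 500 µg/mL replicates 2 or 3 or 20 µg/mL replicates 1 or 2 (log2 fold change -0.12 to -0.14, adjusted p = 0.051 to 0.13). SCD had 2823, 2928 and 2805 CPM at 500 µg/mL, against 3156, 3233 and 3172 CPM at 20 µg/mL (log2 fold change -0.16 ± 0.039, adjusted p = 0.018). The SCD call ended without 500 µg/mL replicates 1 or 3 or 20 µg/mL replicates 1, 2 or 3 (log2 fold change -0.15 to -0.17, adjusted p = 0.056 to 0.10). In the PPARA and fatty acid oxidation list none of 19 tested members was called, and the median was -0.07. DGAT1, which forms triglyceride from diacylglycerol, rose, with 85.1, 81.1 and 74.8 CPM at 500 µg/mL, against 67.2, 67.1 and 57.05 CPM at 20 µg/mL (log2 fold change 0.33 ± 0.066, adjusted p = 0.0021). GPD1, which makes glycerol 3-phosphate, rose as well, with 31.1, 27.9 and 28.1 CPM at 500 µg/mL, against 25.03, 21.1 and 22.1 CPM at 20 µg/mL (log2 fold change 0.35 ± 0.072, adjusted p = 0.0036). Neither gene overlapped between doses, but the call of DGAT1 ended without 20 µg/mL replicate 3 (log2 fold change 0.27, adjusted p = 0.063) and that of GPD1 without 20 µg/mL replicate 2 (log2 fold change 0.30, adjusted p = 0.066).

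Several hypoxia-responsive genes fell, and in some of them replicate 1 was the lowest library at both doses. Of the 30 tested genes of the hypoxia and glycolysis list 6 fell and none rose, 26 lay below 0, and the median was -0.10. CA9, a carbonic anhydrase that is a classical target of hypoxia-inducible factor, had 2.29, 2.02 and 2.81 CPM at 500 µg/mL, against 5.02, 4.77 and 4.01 CPM at 20 µg/mL (log2 fold change -0.94 ± 0.18, adjusted p = 0.0015). ALDOC, an aldolase of glycolysis, had 25.2, 27.3 and 25.4 CPM at 500 µg/mL, against 31.6, 35.98 and 34.01 CPM at 20 µg/mL (log2 fold change -0.38 ± 0.054, adjusted p = 1.2e-05). SLC2A1, the glucose transporter GLUT1, had 219, 236 and 226 CPM at 500 µg/mL, against 271, 291 and 264 CPM at 20 µg/mL (log2 fold change -0.28 ± 0.052, adjusted p = 8.4e-04). These 3 genes had no overlap between doses. NDRG1, another hypoxia target, had 28.8, 48.4 and 43.5 CPM at 500 µg/mL, against 37.9, 55.1 and 60.3 CPM at 20 µg/mL, and its lowest library at each dose was replicate 1 (log2 fold change -0.35 ± 0.090, adjusted p = 0.03). Its ranges overlapped. The NDRG1 call ended without 500 µg/mL replicates 1 or 3 or 20 µg/mL replicates 1, 2 or 3 (log2 fold change -0.28 to -0.38, adjusted p = 0.062 to 0.22). BNIP3L, a mitophagy receptor, had 37.6, 49.6 and 48.7 CPM at 500 µg/mL, against 48.3, 57.5 and 62.1 CPM at 20 µg/mL, again lowest in replicate 1 (log2 fold change -0.30 ± 0.076, adjusted p = 0.024). The BNIP3L call ended without 500 µg/mL replicates 1 or 3 or 20 µg/mL replicates 2 or 3 (log2 fold change -0.24 to -0.32, adjusted p = 0.073 to 0.20). P4HA1, a collagen prolyl hydroxylase, had 118, 127 and 123 CPM at 500 µg/mL, against 121, 151 and 151 CPM at 20 µg/mL (log2 fold change -0.20 ± 0.053, adjusted p = 0.033). The P4HA1 call ended without 500 µg/mL replicates 2 or 3 or 20 µg/mL replicates 2 or 3 (log2 fold change -0.17 to -0.20, adjusted p = 0.14 to 0.22). PFKFB3, a regulator of glycolysis with no call (log2 fold change -0.099 ± 0.20, adjusted p = 0.91), showed the same split, with 2.47, 5.15 and 5.52 CPM at 500 µg/mL, against 2.29, 5.95 and 6.07 CPM at 20 µg/mL. Left out of all set 6 groups together, replicate 1 took the count of called genes in the whole comparison to 129, while leaving out replicate 2 or 3 in that way gave 88 or 92. The part of the split in these results was not tested.

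**Figure D4:**
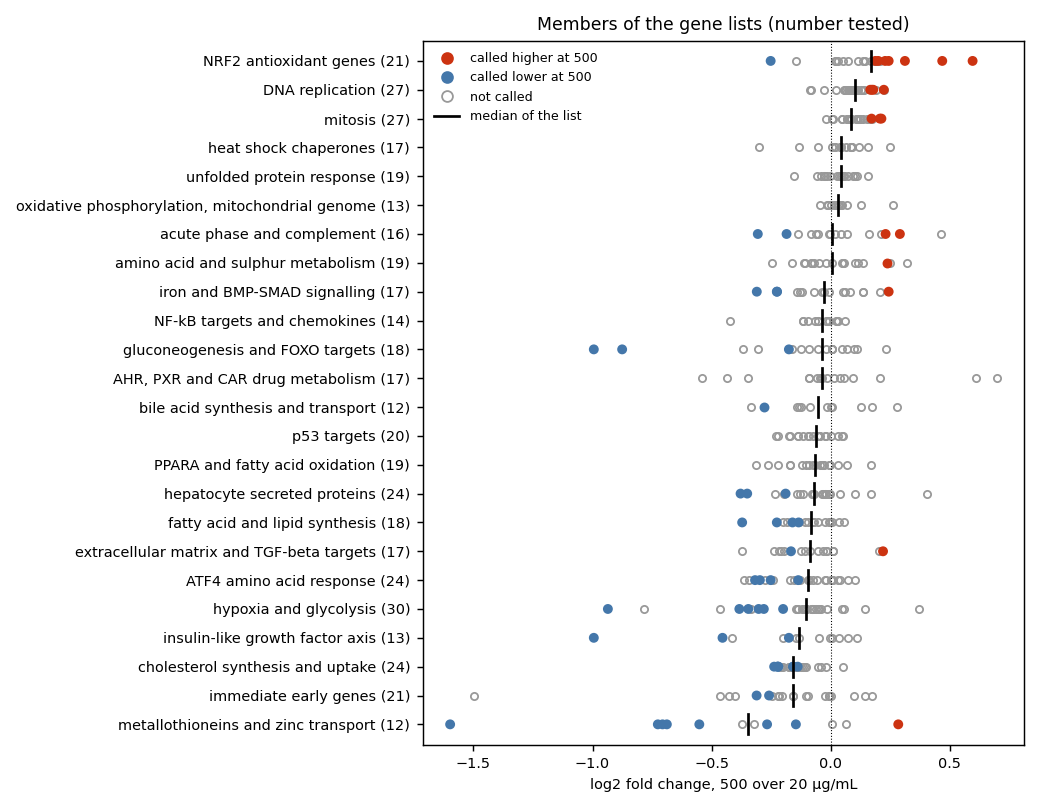
Log2 fold change at 500 over 20 µg/mL (horizontal axis) of each tested member of 24 gene lists (rows, number tested in brackets), with called members filled and the black line at the list's median. Called members lie below 0 in the metallothionein, cholesterol, hypoxia and ATF4 lists, with SLC39A10 the exception in the first, and above 0 in the NRF2 list with the exception of SLC7A11.

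ATF4 is the transcription factor of the amino acid and stress response, and 4 of 24 tested genes of its list fell while none rose, with a median of -0.09. SLC38A2, an importer of neutral amino acids, had 574, 549 and 608 CPM at 500 µg/mL, against 728, 715 and 713 CPM at 20 µg/mL (log2 fold change -0.32 ± 0.053, adjusted p = 1.7e-04). ASNS, asparagine synthetase, had 34.6, 32.1 and 32.3 CPM at 500 µg/mL, against 39.7, 38.7 and 42.9 CPM at 20 µg/mL (log2 fold change -0.30 ± 0.049, adjusted p = 1.5e-04). Both had no overlap, and the other falls were SLC7A11, above, and ATF4 itself. ATF4 had 351, 359.6 and 353 CPM at 500 µg/mL, against 378, 390.5 and 400.0 CPM at 20 µg/mL (log2 fold change -0.14 ± 0.035, adjusted p = 0.028). The ATF4 call ended without 500 µg/mL replicates 1, 2 or 3 or 20 µg/mL replicates 1, 2 or 3 (log2 fold change -0.12 to -0.15, adjusted p = 0.067 to 0.17). DDIT3, a stress factor downstream of ATF4, had 7.00, 8.33 and 9.37 CPM at 500 µg/mL, against 8.82, 7.93 and 8.02 CPM at 20 µg/mL (log2 fold change 0.010 ± 0.096, adjusted p = 0.99). None of the 17 tested heat shock chaperones and none of the 19 tested genes of the unfolded protein response was called, with medians of 0.04 each. The 20 p53 targets and the 14 tested NF-kB targets likewise held no call, with medians of -0.06 and -0.04.

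A few cell cycle genes rose, by small amounts. Of 27 DNA replication genes 4 rose and none fell, 24 lay above 0, and the median was 0.10. These were CDC6, which loads the replicative helicase, and its partners MCM4, MCM7 and MCM10, with log2 fold changes of 0.17, 0.18, 0.17 and 0.22. CDC6 had 103, 114 and 109 CPM at 500 µg/mL, against 92.9, 96.6 and 101 CPM at 20 µg/mL (log2 fold change 0.17 ± 0.046, adjusted p = 0.042), with no overlap. The CDC6 call ended without 500 µg/mL replicates 2 or 3 or 20 µg/mL replicates 1 or 2 (log2 fold change 0.12 to 0.17, adjusted p = 0.11 to 0.37). The call of MCM4 ended without 500 µg/mL replicates 1, 2 or 3 or 20 µg/mL replicates 1, 2 or 3 (log2 fold change 0.15 to 0.21, adjusted p = 0.053 to 0.24), that of MCM7 without 500 µg/mL replicates 1 or 3 or 20 µg/mL replicates 1, 2 or 3 (log2 fold change 0.14 to 0.19, adjusted p = 0.065 to 0.24) and that of MCM10 without 500 µg/mL replicates 1, 2 or 3 or 20 µg/mL replicates 1, 2 or 3 (log2 fold change 0.19 to 0.25, adjusted p = 0.076 to 0.25). The list held 0 or 1 calls when single libraries were left out and 0 without the replicate block. Of 27 mitosis genes 3 rose and none fell, 26 lay above 0, and the median was 0.09. CCNB1, the mitotic cyclin B1, had 126, 122 and 123 CPM at 500 µg/mL, against 106, 105 and 109.6 CPM at 20 µg/mL (log2 fold change 0.21 ± 0.046, adjusted p = 0.0052). The CCNB1 call ended without 500 µg/mL replicate 2 or 20 µg/mL replicate 1 (log2 fold change 0.19, adjusted p = 0.062 to 0.07). The other 2 were CCNB2 and the mitotic kinase AURKA, with log2 fold changes of 0.17 and 0.21. The call of CCNB2 ended without 500 µg/mL replicates 1, 2 or 3 or 20 µg/mL replicates 1, 2 or 3 (log2 fold change 0.14 to 0.20, adjusted p = 0.053 to 0.30) and that of AURKA without 500 µg/mL replicate 1 or 20 µg/mL replicates 1 or 2 (log2 fold change 0.15 to 0.19, adjusted p = 0.13 to 0.26). The mitosis list held 0 to 3 calls without single libraries and 2 without the replicate block. Among 21 immediate early genes 2 fell, with a median of -0.16. DUSP6, a phosphatase that restrains ERK, had 82.7, 83.5 and 83.2 CPM at 500 µg/mL, against 90.4, 102 and 107 CPM at 20 µg/mL (log2 fold change -0.26 ± 0.037, adjusted p = 1.3e-05), and FOSL2, an AP-1 subunit, had 15.6, 15.04 and 14.4 CPM at 500 µg/mL, against 18.3, 19.02 and 18.4 CPM at 20 µg/mL (log2 fold change -0.31 ± 0.058, adjusted p = 9.7e-04). The FOSL2 call was not held with only the 6 libraries in the fit (adjusted p = 0.057). The libraries at 500 µg/mL lay below all at 20 µg/mL for both.

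Among liver secretory genes some rose and some fell. Of 24 tested hepatocyte secreted proteins 3 fell and none rose, with a median of -0.07. TTR, the carrier of thyroid hormone and retinol, had 144, 152 and 149 CPM at 500 µg/mL, against 191, 193 and 195 CPM at 20 µg/mL (log2 fold change -0.38 ± 0.053, adjusted p = 1.0e-05). APOM, an apolipoprotein of high-density particles, had 65.8, 65.8 and 66.3 CPM at 500 µg/mL, against 77.9, 86.01 and 88.3 CPM at 20 µg/mL (log2 fold change -0.35 ± 0.058, adjusted p = 1.5e-04). Neither overlapped between doses. AHSG, the plasma protein fetuin-A, had 1646, 1522 and 1589 CPM at 500 µg/mL, against 1728, 1903 and 1797 CPM at 20 µg/mL (log2 fold change -0.19 ± 0.049, adjusted p = 0.03). The AHSG call ended without 500 µg/mL replicates 2 or 3 or 20 µg/mL replicates 1, 2 or 3 (log2 fold change -0.14 to -0.21, adjusted p = 0.064 to 0.28). In the acute phase and complement list 2 of 16 tested members rose and 2 fell, with a median of 0.01. ORM1 and ORM2 encode the copies of orosomucoid, an acute phase carrier protein, and reads may be shared between them. ORM1 had 360.0, 340.5 and 327 CPM at 500 µg/mL, against 272, 281 and 285 CPM at 20 µg/mL (log2 fold change 0.29 ± 0.062, adjusted p = 0.0047). The ORM1 call ended without 20 µg/mL replicate 1 (log2 fold change 0.25, adjusted p = 0.076). ORM2 had 202, 199 and 215 CPM at 500 µg/mL, against 174, 173 and 179 CPM at 20 µg/mL (log2 fold change 0.23 ± 0.044, adjusted p = 0.0012). CFB, complement factor B, had 152, 142 and 148 CPM at 500 µg/mL, against 165, 166 and 172 CPM at 20 µg/mL (log2 fold change -0.19 ± 0.036, adjusted p = 0.0015). The CFB call was not held with only the 6 libraries in the fit (adjusted p = 0.069) or without the filter on low counts (adjusted p = 0.056). SERPINA3, an acute phase inhibitor of proteases, had 145, 148 and 153 CPM at 500 µg/mL, against 195, 182 and 175 CPM at 20 µg/mL (log2 fold change -0.31 ± 0.068, adjusted p = 0.0077). The SERPINA3 call ended without 500 µg/mL replicates 1 or 2 or 20 µg/mL replicate 1 (log2 fold change -0.26 to -0.29, adjusted p = 0.066 to 0.099). ORM1 and ORM2 were higher and CFB and SERPINA3 lower in every library at 500 µg/mL than in any at 20 µg/mL. Outside the list, KNG1, which encodes kininogen, had 10.4, 11.2 and 11.4 CPM at 500 µg/mL, against 7.87, 8.10 and 9.03 CPM at 20 µg/mL (log2 fold change 0.41 ± 0.099, adjusted p = 0.018). The KNG1 call ended without 500 µg/mL replicates 2 or 3 or 20 µg/mL replicates 1 or 2 (log2 fold change 0.35 to 0.42, adjusted p = 0.063 to 0.17).

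Among iron and BMP-SMAD genes 3 of 17 tested members fell and 1, FTL, rose, with a median of -0.03. TFRC, the transferrin receptor that imports iron, had 1377, 1363 and 1547 CPM at 500 µg/mL, against 1693, 1625 and 1692 CPM at 20 µg/mL (log2 fold change -0.23 ± 0.050, adjusted p = 0.0069). The TFRC call ended without 500 µg/mL replicates 1 or 2 or 20 µg/mL replicate 1 (log2 fold change -0.20 to -0.21, adjusted p = 0.066 to 0.082). TFR2, the second transferrin receptor, had 36.2, 43.1 and 40.9 CPM at 500 µg/mL, against 46.98, 46.8 and 46.9 CPM at 20 µg/mL (log2 fold change -0.23 ± 0.052, adjusted p = 0.011). The TFR2 call ended without 500 µg/mL replicate 1 or 20 µg/mL replicate 1 (log2 fold change -0.17 to -0.20, adjusted p = 0.097 to 0.16). SMAD9, a transcription factor of the BMP pathway, had 12.2, 12.4 and 12.7 CPM at 500 µg/mL, against 16.6, 14.97 and 14.8 CPM at 20 µg/mL (log2 fold change -0.31 ± 0.068, adjusted p = 0.0069). The SMAD9 call ended without 500 µg/mL replicate 1 or 20 µg/mL replicate 1 (log2 fold change -0.25 to -0.29, adjusted p = 0.054 to 0.11). The libraries of the doses did not overlap for these 3. HAMP, which encodes the iron hormone hepcidin, had 6.00, 6.09 and 5.02 CPM at 500 µg/mL, against 5.81, 5.44 and 4.36 CPM at 20 µg/mL, overlapping ranges, and a log2 fold change of 0.14 ± 0.15 (adjusted p = 0.79). In the bile acid list 1 of 12 tested members fell, NR0B2, the repressor SHP, with 42.7, 55.5 and 50.8 CPM at 500 µg/mL, against 51.5, 67.8 and 61.8 CPM at 20 µg/mL and replicate 1 lowest at each dose (log2 fold change -0.28 ± 0.069, adjusted p = 0.018). The NR0B2 call ended without 500 µg/mL replicates 1, 2 or 3 or 20 µg/mL replicates 1, 2 or 3 (log2 fold change -0.26 to -0.30, adjusted p = 0.054 to 0.11). The 13 genes of the mitochondrial genome held no call and had a median of 0.03. One of 19 tested genes of amino acid and sulphur metabolism rose, MAT1A, which makes the methyl donor S-adenosylmethionine in liver, with 280.0, 262 and 271 CPM at 500 µg/mL, against 232, 234 and 224 CPM at 20 µg/mL (log2 fold change 0.24 ± 0.042, adjusted p = 5.0e-04).

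Some differences, among them some of the firmest, lay outside the lists above. CPLX2, complexin 2, a regulator of vesicle fusion, had 200.1, 192 and 189 CPM at 500 µg/mL, against 152, 148 and 137 CPM at 20 µg/mL (log2 fold change 0.41 ± 0.049, adjusted p = 2.8e-07). MATN3, an extracellular matrix protein, had 94.6, 89.9 and 103 CPM at 500 µg/mL, against 140.3, 138 and 139.7 CPM at 20 µg/mL (log2 fold change -0.54 ± 0.063, adjusted p = 1.7e-07). TGFBR3, the co-receptor betaglycan, had 111, 126 and 132 CPM at 500 µg/mL, against 149, 159.6 and 154 CPM at 20 µg/mL (log2 fold change -0.32 ± 0.042, adjusted p = 1.3e-06). No library of one dose reached the range of the other in these 3. FILIP1L had 23.3, 27.1 and 23.4 CPM at 500 µg/mL, against 32.6, 38.01 and 37.01 CPM at 20 µg/mL (log2 fold change -0.55 ± 0.092, adjusted p = 2.1e-04). PIR, an iron-binding nuclear protein, had 19.5, 19.7 and 20.7 CPM at 500 µg/mL, against 14.6, 16.6 and 16.4 CPM at 20 µg/mL (log2 fold change 0.33 ± 0.071, adjusted p = 0.0048), and KBTBD8, a ubiquitin ligase adaptor, had 11.2, 9.98 and 12.2 CPM at 500 µg/mL, against 9.41, 8.65 and 8.17 CPM at 20 µg/mL (log2 fold change 0.36 ± 0.085, adjusted p = 0.015). The call of PIR ended without 500 µg/mL replicate 3 or 20 µg/mL replicate 1 (log2 fold change 0.29 to 0.30, adjusted p = 0.065 to 0.07) and that of KBTBD8 without 500 µg/mL replicate 3 or 20 µg/mL replicates 1 or 3 (log2 fold change 0.25 to 0.37, adjusted p = 0.059 to 0.25). Of genes with a few CPM, ALDH8A1 and TEX19 rose and TUBB1 and MAP4K3-DT fell. Their log2 fold changes were 0.55, 0.54, -0.56 and -0.53. The call of ALDH8A1 ended without 500 µg/mL replicate 3 or 20 µg/mL replicates 1, 2 or 3 (log2 fold change 0.50 to 0.57, adjusted p = 0.059 to 0.11), that of TEX19 without 500 µg/mL replicates 1, 2 or 3 or 20 µg/mL replicates 1 or 2 (log2 fold change 0.41 to 0.55, adjusted p = 0.11 to 0.28), that of TUBB1 without 500 µg/mL replicates 1, 2 or 3 or 20 µg/mL replicates 2 or 3 (log2 fold change -0.48 to -0.59, adjusted p = 0.07 to 0.18) and that of MAP4K3-DT without 500 µg/mL replicates 2 or 3 or 20 µg/mL replicates 2 or 3 (log2 fold change -0.39 to -0.56, adjusted p = 0.089 to 0.31). In the matrix and TGF-beta list 1 of 17 tested members rose and 1 fell. THBS1, thrombospondin 1, had 152, 125 and 126 CPM at 500 µg/mL, against 128, 111 and 107 CPM at 20 µg/mL (log2 fold change 0.22 ± 0.046, adjusted p = 0.0039), with overlap between the doses but a rise within each replicate number. The THBS1 call was not held without the replicate block (adjusted p = 0.18). FN1, fibronectin, fell, with 8016, 8270 and 8110 CPM at 500 µg/mL, against 8850, 9428 and 9104 CPM at 20 µg/mL (log2 fold change -0.17 ± 0.043, adjusted p = 0.026). The FN1 call ended without 500 µg/mL replicates 1, 2 or 3 or 20 µg/mL replicates 2 or 3 (log2 fold change -0.14 to -0.18, adjusted p = 0.077 to 0.19).

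Libraries at 100 µg/mL gave the values between these doses. Of 16167 genes 11 differed between 100 and 20 µg/mL (0.068%), 1 of them higher (0.00619%) and 10 lower (0.0619%). Between 500 and 100 µg/mL 19 differed (0.118%), 6 of them higher (0.0371%) and 13 lower (0.0804%). These comparisons share libraries with each other and with the one above, so their values are given side by side. DEPP1 had 13.96, 21.7 and 20.7 CPM at 20 µg/mL, 11.9, 13.98 and 13.7 at 100 µg/mL and 7.88, 7.97 and 8.62 at 500 µg/mL, and was called in both steps, with log2 fold changes of -0.50 ± 0.095 (adjusted p = 0.02) and -0.70 ± 0.11 (adjusted p = 2.5e-04). IGFBP1 had 175, 284 and 279 CPM at 20 µg/mL, 129, 241 and 238 at 100 µg/mL and 86.5, 137 and 146 at 500 µg/mL. Its call lay in the upper step (-0.70 ± 0.087, adjusted p = 4.6e-06) and not the lower (-0.29 ± 0.085, adjusted p = 0.44). G6PC1, with 25.7, 25.5 and 26.8 CPM at 20 µg/mL, 18.7, 19.02 and 18.6 at 100 µg/mL and 17.5, 12.5 and 13.1 at 500 µg/mL, was called in the lower step (-0.47 ± 0.094, adjusted p = 0.026). Its upper step of -0.41 ± 0.10 missed the threshold (adjusted p = 0.10). Without the replicate block none of these lower-step calls was held, with adjusted p of 0.32 for DEPP1 and 0.13 for G6PC1. Of the 6 fits that left out 1 library of either dose, the lower-step call ended in 5 for DEPP1 and in 6 for G6PC1. The upper-step calls of DEPP1 and IGFBP1 were held in all 6 such fits, but that of IGFBP1 ended without the replicate block (adjusted p = 0.15).

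MT2A, GSTA1 and AKR1C2 were called between 100 and 500 µg/mL and not between 20 and 100 µg/mL; the 2 steps were not tested against each other. MT2A had 384, 351 and 364 CPM at 20 µg/mL, 319.6, 330.0 and 298 at 100 µg/mL and 204, 240.4 and 222 at 500 µg/mL, with an upper step of -0.51 ± 0.11 (adjusted p = 0.032) and a lower one of -0.21 ± 0.11 (adjusted p = 1.00). The upper-step call of MT2A ended without the replicate block (adjusted p = 0.07) and in 5 of the 6 fits without 1 library. Those of GSTA1 and AKR1C2 were held in all of these. The summed metallothioneins were 781.5, 712.1 and 728.2 CPM at 20 µg/mL, 673, 685.7 and 616.6 at 100 µg/mL, and 448.7, 502.7 and 467.3 at 500 µg/mL, so the 3 doses did not overlap. GSTA1 had 26.7, 26.7 and 31.1 CPM at 20 µg/mL, 31.4, 32.8 and 31.9 at 100 µg/mL and 40.1, 46.2 and 49.99 at 500 µg/mL, and was called in the upper step (0.51 ± 0.075, adjusted p = 1.2e-04). AKR1C2 had 148, 153 and 158 CPM at 20 µg/mL, 165, 143 and 143 at 100 µg/mL and 240.3, 194 and 203 at 500 µg/mL. For AKR1C2 the upper step was 0.49 ± 0.055 (adjusted p = 5.3e-07) beside a lower step of -0.025 ± 0.055 (adjusted p = 1.00). CPLX2, with 152, 148 and 137 CPM at 20 µg/mL, 181, 163 and 169 at 100 µg/mL and 200.1, 192 and 189 at 500 µg/mL, was the 1 gene called higher in the lower step (0.23 ± 0.049, adjusted p = 0.046). TGFBR3, with a lower step of -0.23 ± 0.041 (adjusted p = 0.014), and MATN3, with -0.31 ± 0.062 (adjusted p = 0.023), were called lower there. None of these 3 calls was held without the replicate block, with adjusted p of 0.20 for CPLX2, 0.091 for TGFBR3 and 0.13 for MATN3. Of the 6 fits without 1 library, the lower-step call ended in 6 for CPLX2, in 4 for TGFBR3 and in 6 for MATN3. Both counts of called genes were sensitive to single libraries. Without the replicate block they were 2 for the lower step and 9 for the upper. The lower step had 1 call without 20 µg/mL replicate 2 or 100 µg/mL replicates 1 or 2, 2 without replicate 3 of either dose and 4 without 20 µg/mL replicate 1. The upper step had 12 without 500 µg/mL replicate 1 or 100 µg/mL replicate 2 and 9 without 500 µg/mL replicate 3.

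Vehicle libraries give a further reference, with no test here because a difference from vehicle cannot be told apart from one of set or solvent. For several falls vehicle was nearer to 500 than to 20 µg/mL. DEPP1 had 9.83, 11.3 and 13.4 CPM in vehicle, 13.96, 21.7 and 20.7 at 20 µg/mL and 7.88, 7.97 and 8.62 at 500 µg/mL, and IGFBP1 had 108, 119 and 136 CPM in vehicle, 175, 284 and 279 at 20 µg/mL and 86.5, 137 and 146 at 500 µg/mL. MATN3 had 99.5, 94.5 and 104 CPM in vehicle, 140.3, 138 and 139.7 at 20 µg/mL and 94.6, 89.9 and 103 at 500 µg/mL. In these 3 genes the vehicle range lay below all libraries at 20 µg/mL. Metallothioneins differed from that pattern: summed, they were 879.9, 737 and 726 CPM in vehicle, overlapping 20 µg/mL and above all libraries at 500 µg/mL. GSTA1 was 38.1, 37.9 and 34.7 CPM in vehicle, between the ranges of 500 and 20 µg/mL. AKR1C2, at 172, 157 and 159.8 CPM in vehicle, lay below all libraries at 500 µg/mL. Of these vehicle values, 157 lay within the range at 20 µg/mL, and 159.8 and 172 lay above it.

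The same contrast of 500 with 20 µg/mL in 3 other extracts shows where Astragali Radix differed from them. Cnidii Rhizoma and Rehmanniae Radix Preparata are single herbs, and Sagunja-tang is a formula, and none shares a library with Astragali Radix. Their codes carry set number 5 (both herbs) or 7 (Sagunja-tang), against 6 for Astragali Radix. Cinnamomi Cortex, which shares set 6, and Samul-tang were not compared here. Against the 313 genes of Astragali Radix, the contrast of Cnidii Rhizoma had 695 called genes (4.3%), with 1.89% of genes higher and 2.41% lower. Rehmanniae Radix Preparata had 156 (0.965%), with 0.501% higher and 0.464% lower, and Sagunja-tang had 1057 (6.54%), with 3.56% higher and 2.98% lower. The contrast of Astragali Radix differed from that of Cnidii Rhizoma for 4 genes (0.0247%), 0.0124% higher and 0.0124% lower. It differed from Rehmanniae Radix Preparata for 30 genes (0.186%), 0.068% higher and 0.118% lower, and from Sagunja-tang for 24 (0.148%), 0.0557% higher and 0.0928% lower. An unadjusted p under 0.05 was reached by 842, 1147 and 1008 genes. Of the 313 genes called for Astragali Radix, 3, 16 and 9 were among those with a called difference. Without the replicate block the difference was called for 12 genes against Sagunja-tang (3 higher and 9 lower), 23 against Rehmanniae Radix Preparata and 3 against Cnidii Rhizoma, where DESeq2 gave 13. With each library at 500 or 20 µg/mL of either extract left out in turn, 12 fits per pair, the counts were 13 to 22 against Sagunja-tang, 14 to 26 against Rehmanniae Radix Preparata and 2 to 6 against Cnidii Rhizoma. The Cnidii Rhizoma library of replicate 1 at 500 µg/mL had 22.6% mitochondrial counts, against 16.01 and 17.21% in the other 2, and 3 genes differed without it. The part of that share in these results was not tested. TGFBR3 was called different from all 3 extracts. Its log2 fold change was -0.32 ± 0.042 for Astragali Radix, against -0.021 ± 0.041 under the Cnidii extract, 0.068 ± 0.041 under the Rehmanniae extract and 0.13 ± 0.041 under Sagunja-tang. The adjusted p of the differences was 0.031, 2.9e-04 and 8.1e-06. The TGFBR3 difference from Cnidii Rhizoma ended without the replicate block (adjusted p = 0.17) and in 8 of the 12 fits without 1 library. Those from the other 2 extracts were held in all 12 and without the block.

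MT1G also fell under Cnidii Rhizoma and Sagunja-tang. It had a log2 fold change of -0.71 ± 0.11 for Astragali Radix, against -1.54 ± 0.12 for Cnidii Rhizoma (adjusted p of the difference = 0.041), 0.16 ± 0.11 for Rehmanniae Radix Preparata (adjusted p = 0.0041) and -0.94 ± 0.11 for Sagunja-tang (adjusted p = 0.91). The MT1G difference from Cnidii Rhizoma ended in 11 of the 12 fits without 1 library, and that from Rehmanniae Radix Preparata was held in all 12. MT2A gave -0.73 ± 0.11 for Astragali Radix, against -1.33 ± 0.11, -0.13 ± 0.11 and -0.76 ± 0.11 in the same order, with no difference called (adjusted p = 0.27, 0.12 and 1.00). IGFBP1 had a log2 fold change of -0.99 ± 0.087 for Astragali Radix, against -0.19 ± 0.085 for Sagunja-tang (adjusted p of the difference = 2.7e-04). The IGFBP1 difference was held in all 12 fits without 1 library and ended without the replicate block (adjusted p = 0.46). Against Cnidii Rhizoma (-0.68 ± 0.085) and Rehmanniae Radix Preparata (-0.52 ± 0.085) the difference was not called (adjusted p = 0.78 and 0.10). DEPP1 fell by more than under Rehmanniae Radix Preparata (-1.20 ± 0.10 for Astragali Radix against -0.43 ± 0.095, adjusted p = 0.0041). The DEPP1 difference ended without the replicate block (adjusted p = 0.14) and without Astragali Radix 500 µg/mL replicate 2 (adjusted p = 0.053). Against Cnidii Rhizoma no DEPP1 difference was called.

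AKR1B10 rose by 0.60 ± 0.063 for Astragali Radix, against 1.16 ± 0.060 for Cnidii Rhizoma (adjusted p of the difference = 6.9e-04) and 1.07 ± 0.060 for Sagunja-tang (adjusted p = 0.0035), so its rise was smaller than both. GSTA1 rose by 0.70 ± 0.076 for Astragali Radix, against 0.13 ± 0.078 for Rehmanniae Radix Preparata (adjusted p = 0.0055) and 0.11 ± 0.076 for Sagunja-tang (adjusted p = 0.0039), and was larger than both. The GSTA1 difference from Rehmanniae Radix Preparata ended in 2 of 12 fits, without Astragali Radix 500 µg/mL replicate 2 or Rehmanniae Radix Preparata 20 µg/mL replicate 3. The other differences of AKR1B10 and GSTA1 given here were held in each of the 12 fits and without the block. Against Cnidii Rhizoma no GSTA1 difference was called, as only HAMP, MT1G, AKR1B10 and TGFBR3 differed there. HAMP had 0.14 ± 0.15 for Astragali Radix, against -1.86 ± 0.18 for Cnidii Rhizoma and -1.64 ± 0.20 for Rehmanniae Radix Preparata (adjusted p = 3.0e-06 and 1.5e-04), where hepcidin message fell. CYP1A1 had 0.092 ± 0.079 for Astragali Radix, against 0.79 ± 0.073 for Rehmanniae Radix Preparata (adjusted p = 4.2e-04) and 2.31 ± 0.065 for Sagunja-tang (adjusted p = 9.1e-20).

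**Figure D5:**
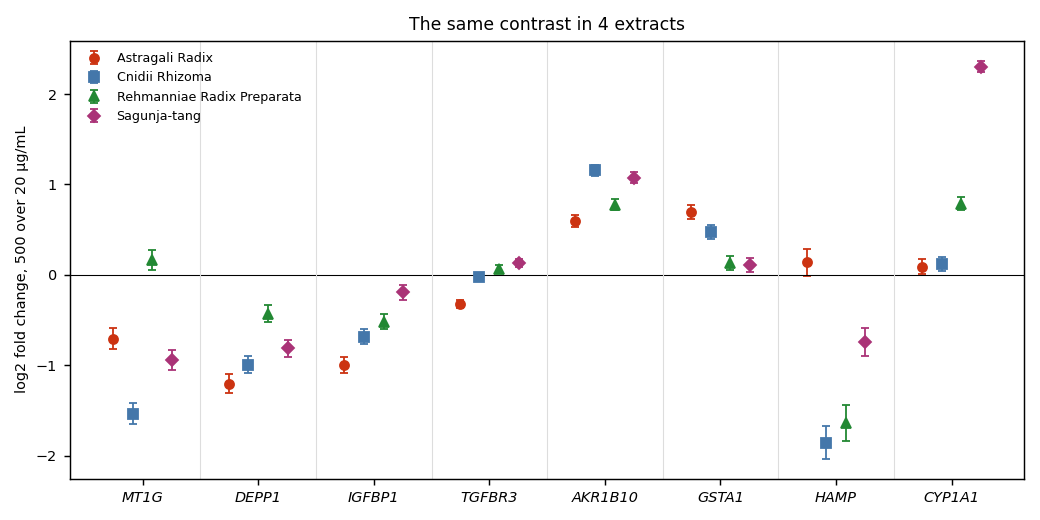
Log2 fold change at 500 over 20 µg/mL (vertical axis; bars are SE) of 8 genes in Astragali Radix and 3 other extracts, each from 3 libraries per dose. TGFBR3 lies below the other extracts under Astragali Radix, HAMP lies near 0 where the others lie below it, and AKR1B10 lies above 0 in all 4 but lowest under Astragali Radix.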

How the data were processed

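RNA from HepG2 cells was sequenced after 24 h with an extract or vehicle. The authors deposited expected counts per gene (estimated reads, not normalised) for 60675 genes and 270 columns. In the 60 columns used, 8.58% of values were not whole (any fractional part above 0), which is how the unit was identified, and the 210 columns outside these samples were not used. STAR 2.7.3a, RSEM 1.3.3, Trim Galore 0.6.5, FastQC 0.11.9 and the build GRCh38 are listed, without their settings, in the submitters' processing notes. Gene names were current symbols where available and otherwise those of GENCODE 29, which held 57055 of the IDs.

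Counts were rounded and fitted in R 4.3.3 with edgeR 4.0.16 (filterByExpr, TMM, glmQLFit, glmQLFTest) on 57 libraries of 19 groups, with a mean per group and the replicate number within each set as a block, which left 16167 genes, 32 residual degrees of freedom and a common dispersion of 0.00265. The 3 Palmul-tang libraries, without replicates, stayed out. Tests were two-sided, adjusted by Benjamini-Hochberg over all genes, and called at adjusted p under 0.05. CPM are TMM-scaled unless stated. The 9 Astragali Radix libraries held 16.5 to 27.7 M counts, which limits the precision of genes of a few CPM.

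Named genes were the 12 largest called changes in each direction with a mean of at least 2 CPM, up to 5 called members per list, 5 genes per difference between extracts, and other members of described lists. Some list members are counted but not reported here by name. The comparison, its genes, the 24 gene lists and the tests were chosen with earlier results of these data known. Promoters came from RefSeq, GRCh38.p14. Alternatives were no block, RLE size factors, no filter, DESeq2 1.42.0, fewer groups in the fit and left-out libraries.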

Additional observations from a re-analysis of the deposited data

Results flagged for a closer look

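The following genes showed a difference between groups: their log2 fold change at 500 over 20 µg/mL under Astragali Radix differed from that under another extract by a test of the difference itself (edgeR, adjusted p under 0.05 over all genes). Values below are the change under Astragali Radix minus the change under the other extract, on the log2 scale. No cause was tested. With each library at these doses of either extract left out in turn (12 fits a pair), the difference from Cnidii Rhizoma ended in 11 fits for MT1G and 8 for TGFBR3. That from Rehmanniae Radix Preparata ended in 9 for ALDOC, 7 for NQO1, 6 each for DUSP6 and SERPINA3, 4 for SLC7A11, 2 each for KNG1 and GSTA1 and 1 for DEPP1. Without the replicate block it ended for TGFBR3 against Cnidii Rhizoma, for ALDOC, DEPP1 and DUSP6 against Rehmanniae Radix Preparata, and for IGFBP1 and DUSP6 against Sagunja-tang.

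Against Cnidii Rhizoma the difference was 1.99 for HAMP, 0.83 for MT1G, -0.56 for AKR1B10 and -0.30 for TGFBR3. HAMP, which encodes hepcidin, fell under Cnidii Rhizoma and had no call under Astragali Radix, and MT1G fell under both extracts. AKR1B10 rose under both, by less under Astragali Radix.

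Against Rehmanniae Radix Preparata the differences above 0 were 1.78 for HAMP, 0.75 for KNG1, 0.72 for ID1, 0.68 for ID2 and 0.57 for GSTA1. HAMP, ID1 and ID2 are targets of BMP-SMAD signalling. Their own log2 fold changes were 0.14, 0.083 and 0.21 under Astragali Radix, none called (adjusted p = 0.79, 0.75 and 0.14), against -1.64, -0.63 and -0.47 under Rehmanniae Radix Preparata, all called. Differences below 0 were -0.87 for MT1G, -0.77 for DEPP1, -0.69 for CYP1A1, -0.47 for SLC7A11 and -0.46 for SERPINA3. Smaller ones were -0.39 for TGFBR3, -0.35 for ALDOC, -0.33 for NQO1 and -0.25 for DUSP6. SLC7A11, a cystine importer, had a log2 fold change of -0.25 under Astragali Radix, against 0.22 under Rehmanniae Radix Preparata, which was not called (adjusted p = 0.12).

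Against Sagunja-tang the difference was -2.21 for CYP1A1, -0.80 for IGFBP1, -0.48 for AKR1B10, -0.46 for TGFBR3, -0.45 for NQO1 and -0.34 for DUSP6. It was 0.86 for KNG1 and 0.59 for GSTA1. KNG1, kininogen, rose under Astragali Radix (0.41) and fell under Sagunja-tang (-0.45, adjusted p = 0.0033). NQO1 had 0.17 under Astragali Radix (adjusted p = 0.056), against 0.62 under Sagunja-tang (adjusted p = 2.9e-12).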

How the results depend on the processing

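The 313 calls became 187 without the replicate block, 186 of them among the 313. Same-numbered libraries of 500 and 20 µg/mL deviated from their group means with correlations across genes of -0.006, 0.061 and 0.055. Libraries with unlike numbers gave -0.082 to 0.028. Taken over all genes, these values do not show that the numbers pair the samples. In some genes, such as IGFBP1 and NDRG1, replicate 1 was nonetheless the lowest library at both doses. The block is in the fit because the comparison was defined with it. Only the 6 libraries compared gave 146, single libraries left out 147 to 184, and, chosen after seeing the data, set 6 without replicate 1, 2 or 3 gave 129, 88 and 92. RLE size factors gave 309, no filter on low counts 382 (205 of them among the 313), DESeq2 349, the 9 Astragali Radix libraries 396 and the 18 libraries of set 6 444. For 500 against 100 µg/mL the 19 calls became 9 without the replicate block, 108 without the filter, 39 by DESeq2 and 9 to 17 without single libraries. For 100 against 20 µg/mL the 11 became 2 without the replicate block, 77 without the filter, 19 by DESeq2 and 1 to 4 without single libraries. Differences from Cnidii Rhizoma (4) became 110 without the filter and 13 by DESeq2, those from Rehmanniae Radix Preparata (30) 137 without the filter, and those from Sagunja-tang (24) 108 without the filter and 12 without the replicate block. With single libraries left out, a check added after seeing the data, these became 2 to 6, 14 to 26 and 13 to 22. The causes of these shifts were not tested. The summed metallothionein ratio stayed within 1 SD of its value under the alternatives tried. Of 86 called genes named by rule, 38 kept their call without each single library and none changed direction. Of the 86, calls ended for 24 without the block, 1 with RLE, 13 without the filter, 0 with DESeq2, 28 with only the 6 libraries compared, 6 with the 9 and 4 with the 18. A gene without an adjusted p from DESeq2, such as ALDH8A1, was not counted as ended there. Set 6 without replicate 1, 2 or 3 ended 44, 48 and 48.

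With 3 libraries a dose and differences mostly under 1.5-fold, calls near the threshold depend on single libraries. Expected counts split reads of near-identical copies (metallothioneins, GSTA, AKR1C and ORM genes) by estimation, so sums are safer there.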

Other observations

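The lists in this section were put together after the values had been seen, so their counts describe these libraries and support nothing further. Of 73 genes that build ribosomes in the nucleolus, 20 were called higher at 500 than at 20 µg/mL, none was called lower and 53 were not called. Their median log2 fold change was 0.15 and 71 lay above 0, beside 106 rises among 16167 genes tested (0.656%) and 7946 genes above 0. POLR1G, a subunit of RNA polymerase I, had 32.04, 29.6 and 30.2 CPM at 500 µg/mL, against 24.3, 25.5 and 23.4 CPM at 20 µg/mL (log2 fold change 0.33 ± 0.066, adjusted p = 0.0022; errors are SE, edgeR). NOL6, a factor of the small subunit precursor, had 67.8, 67.1 and 66.9 CPM at 500 µg/mL, against 60.2, 55.1 and 53.4 CPM at 20 µg/mL (log2 fold change 0.26 ± 0.051, adjusted p = 0.0017). The libraries of the doses did not overlap for either. These 2 were the members called without each single library, and the list held 5 to 9 calls when single libraries were left out and 9 without the replicate block. Of 20 cytosolic tRNA synthetases 4 rose (KARS1, FARSB, HARS1 and VARS1) and none fell, with a median of 0.05. The calls of FARSB and HARS1 ended without 500 µg/mL replicates 1, 2 or 3 or 20 µg/mL replicates 1, 2 or 3. That of KARS1 ended without 500 µg/mL replicates 1 or 2 or 20 µg/mL replicates 1, 2 or 3. That of VARS1 ended without 500 µg/mL replicates 1, 2 or 3 or 20 µg/mL replicates 1 or 3. The tRNA synthetase list held 0 or 1 calls without single libraries.

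Of 40 tested autophagy genes, 11 were called lower, none was called higher and 29 were not called, with a median of -0.06, beside 207 falls among all genes tested (1.28%). TP53INP1, which binds the autophagosome protein LC3, had 26.5, 27.2 and 28.4 CPM at 500 µg/mL, against 36.5, 36.3 and 35.96 CPM at 20 µg/mL (log2 fold change -0.40 ± 0.058, adjusted p = 1.5e-05). OPTN, an autophagy receptor, had 19.8, 19.3 and 19.2 CPM at 500 µg/mL, against 24.6, 25.6 and 25.3 CPM at 20 µg/mL (log2 fold change -0.37 ± 0.075, adjusted p = 0.0023), and NBR1, another receptor, had 88.5, 87.7 and 89.1 CPM at 500 µg/mL, against 99.4, 104 and 112 CPM at 20 µg/mL (log2 fold change -0.25 ± 0.041, adjusted p = 1.5e-04). All 3 had no overlap between doses and, with DEPP1, were the members called without each single library. The list held 5 to 9 calls without single libraries and 9 without the replicate block. Among 14 tested glutathione S-transferases only GSTA1 and GSTA2 rose and MGST2 fell, with a median of -0.01. MGST2, a membrane-bound member, had 51.1, 54.4 and 57.8 CPM at 500 µg/mL, against 62.6, 64.1 and 65.3 CPM at 20 µg/mL (log2 fold change -0.23 ± 0.063, adjusted p = 0.038). The MGST2 call ended without 500 µg/mL replicates 1, 2 or 3 or 20 µg/mL replicates 1, 2 or 3 (log2 fold change -0.20 to -0.26, adjusted p = 0.072 to 0.22).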
